A study of Homo sapiens with 4 samples.

Results

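The ETS family is a set of transcription factors that share one DNA-binding domain. The account below covers 10 genes of the family, ELF3, EHF, ELF1, ELF2, ELF4, ETS1, ETS2, GABPA, ETV6 and ELK3, found by symbol among the 61228 features listed in each count table. They were chosen by name, with earlier results of these data known, so as to set the epithelial members ELF3 and EHF beside 8 broadly expressed ones. RNA-seq had been done on H1792, an established human lung cancer cell line whose genotype is labelled WT, in 4 libraries. The 2 control libraries (DMSO replicates 1 and 2) came from cells given the solvent DMSO, and the 2 others (ACBI1 replicates 1 and 2) from cells given ACBI1, all for 96 h. ACBI1 is a PROTAC, which brings its target proteins to a ubiquitin ligase for destruction. Its targets are the SWI/SNF chromatin remodelling ATPases SMARCA2 and SMARCA4 and the subunit PBRM1. The labels write its dose as 1 mM, and the unit could not be checked from counts. Each replicate is the same cell line, so the comparison speaks for H1792 alone.

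ETS factors bind DNA around a GGAA core, and what sets the members apart is mostly the cell type they are made in, their partner proteins and whether they activate or repress. ELF3 and EHF are made mainly in epithelia, where they act on differentiation genes, and ELF3 is also known as a gene induced by inflammatory cytokines in airway cells. Several others, among them ETS1, ETS2 and ELK3, carry sites that ERK kinases phosphorylate, which ties them to RAS signalling. SWI/SNF complexes keep enhancers open, so that lineage-restricted genes are among those known to respond when the ATPases are lost.

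Gene counts per library lay between 64281850 and 86010100, and the libraries of a group differed by more than sampling noise (chi-square per degree of freedom 144 for DMSO and 94.9 for ACBI1). The labels do not say whether replicates were separate cultures, so p-values measure the spread between these libraries, which may be technical. In CPM (counts scaled to library size), the SMARCA4 transcript measured 250 ± 47.8 in the controls and 406 ± 11.3 after ACBI1 (SD, n = 2; log2 change 0.70, adjusted p 0.0583). SMARCA2 measured 23.6 ± 1.17 and 17.9 ± 0.639 (-0.40, adjusted p 0.163), and PBRM1 50.1 ± 6.87 and 53.6 ± 2.80 (0.10, adjusted p 0.734). None of the 3 was called, and since ACBI1 acts on protein they check no label. Of 8 markers of lung epithelium, the keratins KRT7, KRT8 and KRT18 had mean levels of at least 147 CPM with DMSO, while CDH1 was at 4 and 16 counts (DMSO) and 7 and 6 counts (ACBI1), and NKX2-1 was at 0 in all 4. The 8 summed to 978 and 1030 CPM with DMSO and to 322 and 201 CPM with ACBI1. Summed blood cell markers (6 genes, CD3E and HBB at 0 in each library) stayed between 0.234 and 0.820 CPM. Fibroblast markers (5 genes, none at 0) summed to 349 and 762 CPM with DMSO and to 72.3 and 226 CPM with ACBI1, most of it from COL1A1, which was not called (log2 change -1.90, adjusted p 0.0860). Of these markers DCN (-6.24, adjusted p 0.00425) and LUM (-3.19, adjusted p 0.0319) fell. Endothelial markers (4 genes) summed to 12.7 and 49.0 CPM with DMSO and to 0.123 and 0.107 CPM with ACBI1. Nearly all of the DMSO sum came from PECAM1, which fell (log2 change -10.09, adjusted p 0.00431). VWF, with 24 and 23 counts with DMSO and 0 in both ACBI1 libraries, fell too (-7.57, adjusted p 0.0130). KDR was not called (-1.98, adjusted p 0.109). CDH5, with 2 and 4 counts with DMSO and 0 in both ACBI1 libraries, could not be tested. The part of these markers in the results on ETS genes was not tested.

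All 10 ETS genes passed the filter on low counts. ACBI1 lowered 5 of them, ELF3, EHF, ETS2, ETV6 and ELF1, and raised none past the threshold of an edgeR quasi-likelihood adjusted p under 0.05. Of all 19159 genes tested, 17.4% were called, 10.6% lower and 6.75% higher. The 10 genes had a median log2 change of -0.69, where all tested genes had one of 0.01. None of the 10 overlapped between the groups: 7 were lower in both treated libraries than in either control, and 3 were higher. Such a separation was seen in 63.2% of tested genes, 32.1% lower and 31.1% higher. Bulk counts cannot tell fewer cells that make a transcript from less of it per cell.

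**Figure D1:**
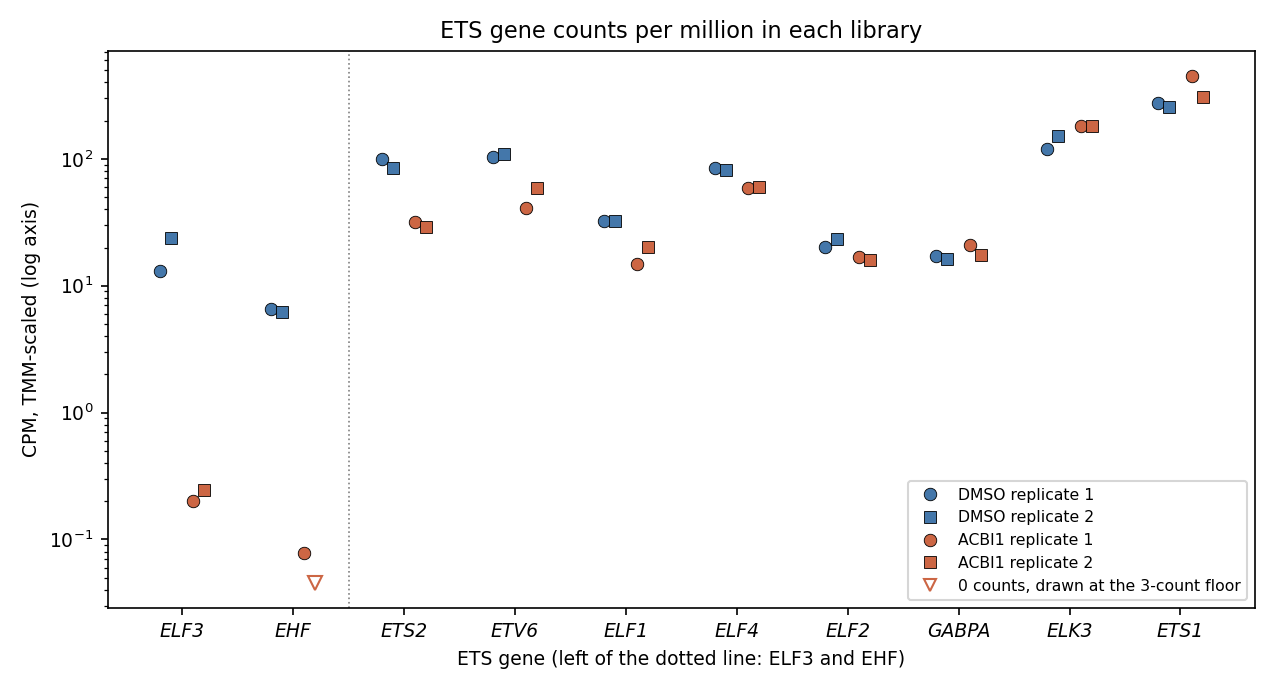
CPM of the 10 ETS genes (log axis) in the 2 DMSO (blue) and 2 ACBI1 (orange) libraries, circles for replicate 1 and squares for replicate 2, with a library at 0 counts drawn as an open triangle at 3 counts. ELF3 goes from 13.0 and 23.7 CPM to at most 0.244 CPM and EHF from 6.51 and 6.25 CPM to at most 0.0782 CPM, while the lowest value of the other genes is 14.7 CPM (ELF1).

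ELF3, a factor of epithelial differentiation on chromosome 1 (chr1:202007945-202017188, + strand, GRCh38), was at 13.0 and 23.7 CPM in DMSO replicates 1 and 2 and at 0.201 and 0.244 CPM in ACBI1 replicates 1 and 2. The groups lay far apart, although the DMSO libraries themselves differed. These values rested on 2763 control counts against 34 treated ones, a ratio of 82.2 once scaled, with an exact 95% interval of 58.7 to 119 that covers counting error only. The log2 change was -6.36 (SE 0.44, 95% interval -7.44 to -5.29, adjusted p 0.00193), and 0.715% of tested genes had a change as low or lower.

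Of the exonic length of ELF3, 18.5% is shared with 2 other genes. One is AL691482.3, which shares 9.23% on the same strand, where no strand setting would separate the reads. The other is the antisense gene ELF3-AS1. As the strand setting of the counts is not given in the sources used here, reads of ELF3 and ELF3-AS1 cannot be told apart where they overlap. ELF3-AS1 had 89 and 213 counts with DMSO and 17 and 16 with ACBI1. It fell too, with a log2 change of -3.22 (SE 0.60, adjusted p 0.0201).

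EHF, the close relative of ELF3 in the epithelial subfamily, lies on chromosome 11 (chr11:34621093-34661057, + strand, GRCh38), and no other gene overlaps its exons. It was at 6.51 and 6.25 CPM in the DMSO libraries and at 0.0782 and 0 CPM in the ACBI1 libraries. The controls were close to each other, and EHF all but disappeared with ACBI1: ACBI1 replicate 1 held 7 counts and replicate 2 held 0, which allows up to 0.0457 CPM. With 980 counts against 7, the scaled ratio of control to treated was 142, with an exact 95% interval of 68.4 to 353 from counting alone. The fitted log2 change of -7.14 (SE 0.79, 95% interval -9.07 to -5.21, adjusted p 0.00521) depends on the prior count. It was -11.86 without ACBI1 replicate 1, where the 0 counts of replicate 2 stood alone, and -6.33 without ACBI1 replicate 2. EHF was called with any one library left out.

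The promoter sequences of ELF3 and EHF are shown because these are the members whose transcripts nearly vanished, and that of GABPA because it is the only start among the members with a full ETS site. They run from 250 bases before to 50 bases after a RefSeq start (GRCh38.p14), 5′ to 3′ on the gene's strand, in a table that held 17 starts for 9 of the 10 genes. Capitals mark matches, on either strand, to 3 motifs. The first is CCGGAAG, a strong binding site of many ETS factors. The second is TGANTCA, where N is any base, the site of the AP-1 factors Fos and Jun. The third is TATAAA, the core promoter element called the TATA box. The motifs were picked with these sequences in view. ELF3 has 1 listed start (chr1:202010337-202010636, + strand).
ELF3: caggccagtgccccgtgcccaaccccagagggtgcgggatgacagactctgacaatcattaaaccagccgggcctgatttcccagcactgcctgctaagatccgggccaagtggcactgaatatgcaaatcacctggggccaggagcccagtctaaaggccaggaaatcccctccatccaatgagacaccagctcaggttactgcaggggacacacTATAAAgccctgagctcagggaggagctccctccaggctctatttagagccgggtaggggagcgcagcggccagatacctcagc
EHF has 2 (chr11:34624007-34624306 and chr11:34632316-34632615, + strand), and none of the 3 motifs is in either window.
EHF start 1: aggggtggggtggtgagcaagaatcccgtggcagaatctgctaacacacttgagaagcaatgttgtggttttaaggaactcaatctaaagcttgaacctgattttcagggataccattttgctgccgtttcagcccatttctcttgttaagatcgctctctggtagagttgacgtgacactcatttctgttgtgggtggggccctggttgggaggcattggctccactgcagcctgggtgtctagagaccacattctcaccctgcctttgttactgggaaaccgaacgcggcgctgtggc
EHF start 2: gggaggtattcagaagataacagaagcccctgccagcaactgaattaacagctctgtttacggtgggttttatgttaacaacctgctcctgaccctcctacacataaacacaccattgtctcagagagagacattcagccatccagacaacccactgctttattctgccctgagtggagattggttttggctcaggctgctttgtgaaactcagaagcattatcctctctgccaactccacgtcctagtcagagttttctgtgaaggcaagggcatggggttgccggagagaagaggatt
GABPA has 1 (chr21:25734722-25735021, + strand).
GABPA: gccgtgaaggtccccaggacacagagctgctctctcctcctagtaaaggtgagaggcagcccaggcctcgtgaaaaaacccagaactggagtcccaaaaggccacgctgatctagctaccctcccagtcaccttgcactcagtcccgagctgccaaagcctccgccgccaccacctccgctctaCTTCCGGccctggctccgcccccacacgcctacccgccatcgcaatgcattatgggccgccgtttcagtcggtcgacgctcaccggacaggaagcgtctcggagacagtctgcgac

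In the ELF3 window the TATA box begins 34 bases before the start. Among all 35116 starts in the table, 11.5% hold TATAAA in a window of this length. The ETS match of GABPA begins 66 bases before its start, and 10.3% of all windows hold such an ETS site. The AP-1 site, held by 7.71% of all windows, was found at 1 of 3 starts of ELF4 and at no other start of the members, and the letters TATAAA also at 1 start each of ELF1, beginning 29 bases before it, and ELF2, beginning 214 bases before it. None of the motifs overlapped another in these windows. The ELF3 window held 7 CpG dinucleotides and those of EHF 8 and 3, against a median of 14 over all windows. The 7 broadly expressed members with an entry each had at least 1 start with 20 or more CpG, up to 48 for ELK3, but other starts of theirs held 3 and 5 (ELF1), 7 and 5 (ELF4) and 9 (ELK3), in or beside the range of ELF3 and EHF. With 2 genes on one side this is a description, and the counts do not say which start is used.

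By the similarity of their log2 CPM over the 4 libraries, each centred on its own mean, the genes nearest to ELF3 among those with at least 5 CPM were SAA1 (distance 0.257), TNFSF15 (0.488) and AKR1B15 (0.544). SAA1, an acute-phase protein, was at 9.12 and 17.1 CPM with DMSO and at 0.112 and 0.183 CPM with ACBI1. Nearest to EHF were LINC01411 (1.07), BDKRB2 (1.15), the bradykinin B2 receptor, and TNFAIP6 (1.21), all at larger distances. The limit of 5 CPM was on the mean of the 4 libraries. EHF itself lay below it, so genes at its level were not searched, and its ACBI1 values rest on 7 and 0 counts. The genes named here were picked for their likeness over the same 4 libraries, so their values are a description. SAA1 and AKR1B15 have close paralogs, between which reads can be split.

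**Figure D2:**
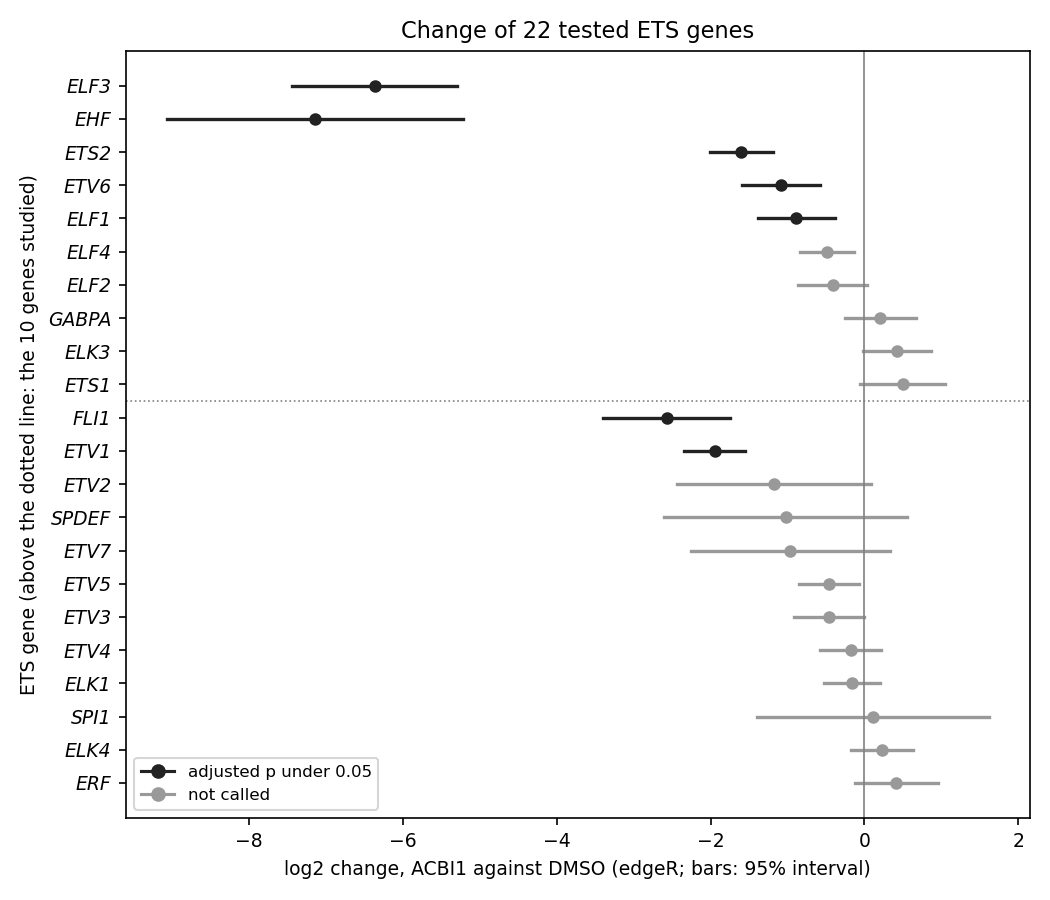
log2 change with ACBI1 (points) and its 95% interval (bars) for 22 tested ETS genes, black where the edgeR adjusted p was under 0.05 and grey elsewhere, the 10 genes studied above the dotted line and 12 others below. The intervals of ELF3 and EHF end at -5.29 and -5.21, and the lowest bound among the 8 broadly expressed genes is that of ETS2 at -2.01.

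Of the 8 broadly expressed genes, 3 fell (37.5%), none rose past the threshold and 5 were not called. Over all tested genes, 17.4% were called, 10.6% of them lower and 6.75% higher as shares of all tested. The 8 had a median log2 change of -0.45 against -6.75 for ELF3 and EHF. The 95% intervals of ELF3 and EHF (unadjusted, as are all intervals given here) lay wholly below those of the 8. No test of this difference between genes was made, since the genes share the 4 libraries.

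ETS2, an activator that ERK phosphorylates beside its Pointed domain, is on chromosome 21 (chr21:38805307-38824955, + strand, GRCh38) and fell most among the 8. It was at 99.6 and 84.0 CPM in the DMSO libraries and at 31.8 and 28.9 CPM in the ACBI1 libraries, and both treated libraries lay well below the lower control. The log2 change was -1.60 (SE 0.17, 95% interval -2.01 to -1.19, adjusted p 0.00459). It was called with any one library left out, with values from -1.72 to -1.47.

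ETV6, a repressor whose Pointed domain lets it form polymers and which is known from gene fusions in leukaemia, lies on chromosome 12 (chr12:11649854-11895402, + strand, GRCh38). It was at 103 and 108 CPM with DMSO and at 41.1 and 58.7 CPM with ACBI1. The log2 change was -1.08 (SE 0.21, 95% interval -1.59 to -0.57, adjusted p 0.0222). ELF1, an activator best known from blood and endothelial cells, is on chromosome 13 (chr13:40932028-41061440, − strand, GRCh38). It was at 32.2 CPM in both DMSO libraries and at 14.7 and 20.1 CPM in the ACBI1 libraries, a log2 change of -0.89 (SE 0.21, 95% interval -1.39 to -0.39, adjusted p 0.0351). For ETV6 and for ELF1, ACBI1 replicate 1 was the lower treated library. Without it both calls were lost, at a log2 change of -0.84 for ETV6 (adjusted p 0.0986) and -0.67 for ELF1 (adjusted p 0.179), and 3 of the 10 genes were called. With any other library left out all 5 calls stood.

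ELF4 and ELF2, relatives of ELF1, were lower in both ACBI1 libraries without passing the threshold. ELF4, which is known for roles in innate immunity, lies on chromosome X (chrX:130064874-130110716, − strand, GRCh38). Its level was 84.1 and 82.2 CPM with DMSO and 58.7 and 59.8 CPM with ACBI1, a log2 change of -0.49 (95% interval -0.84 to -0.14, adjusted p 0.0680). ELF2, on chromosome 4 (chr4:139028112-139177218, − strand, GRCh38), was at 20.2 and 23.4 CPM with DMSO and at 16.9 and 15.8 CPM with ACBI1. Its log2 change was -0.41 (95% interval -0.86 to 0.03, adjusted p 0.172). The replicates of ELF4 lay close together, while the controls of ELF2 differed more (SD 2.27 CPM, n = 2). In both genes the estimated differences were smaller than those of the called genes.

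ETS1, ELK3 and GABPA were higher in both ACBI1 libraries, and none passed the threshold. ETS1, the founding member of the family and an activator linked to invasion and matrix protease genes, lies on chromosome 11 (chr11:128458761-128587558, − strand, GRCh38). It was at 277 and 258 CPM with DMSO and at 449 and 305 CPM with ACBI1, a log2 change of 0.50 (95% interval -0.06 to 1.05, adjusted p 0.184). The ACBI1 replicates differed from each other by more than the lower of them differed from the controls, and the log2 change was 0.20 without ACBI1 replicate 1.

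ELK3, a ternary complex factor that binds with SRF and represses until ERK phosphorylates it, is on chromosome 12 (chr12:96194382-96269835, + strand, GRCh38). It was at 119 and 152 CPM with DMSO and at 182 and 181 CPM with ACBI1, a log2 change of 0.42 (95% interval -0.02 to 0.86, adjusted p 0.161). Here the controls were the more variable group. GABPA, the DNA-binding subunit of GA-binding protein and a known activator of nuclear genes for mitochondria, is on chromosome 21 (chr21:25734570-25772460, + strand, GRCh38). It was at 17.003 and 16.2 CPM with DMSO and at 20.8 and 17.4 CPM with ACBI1. Its log2 change of 0.20 (95% interval -0.26 to 0.67, adjusted p 0.499) was the smallest of the 10. With 1 library left out, the values ran from 0.08 to 0.32 for GABPA and from 0.26 to 0.60 for ELK3, and neither gene was called. Exons of ATP5PF overlap 7.61% of its exonic length. In 7 other analyses of the 4 libraries without a replicate term (scalings, filters, DESeq2 and limma-voom), the 8 genes kept their direction and their side of the threshold.

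Levels of different genes were compared as CPM per kb of exonic length. With DMSO, ETS1 was highest (38.7 and 36.1 CPM per kb), followed by ELK3 (25.6 and 32.6), then ETS2 (21.7 and 18.3) and ELF4 (19.5 and 19.0), whose ranges overlapped, ETV6 (14.5 and 15.3) and ELF1 (7.42 and 7.43). The lowest 4 were GABPA (3.13 and 2.99), ELF3 (1.81 and 3.29), ELF2 (2.36 and 2.73) and EHF (1.48 and 1.43). ELF3 overlapped both GABPA and ELF2, and EHF lay below the others. With ACBI1, ETS1 (62.8 and 42.6) and ELK3 (39.2 and 38.9) were still highest. ELF4 (13.6 and 13.9) came next, while ETS2 (6.91 and 6.28) overlapped ETV6 (5.80 and 8.30). ELF1 (3.39 and 4.64) overlapped GABPA (3.84 and 3.21), and ELF2 was at 1.97 and 1.85 CPM per kb. ELF3 and EHF were last, at 0.0340 CPM per kb or less. Per kb of the longest transcript, ELF2 and GABPA exchanged ranks in both groups, and the other 8 genes kept theirs.

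Summed over 28 ETS genes, the level was 246 ± 1.01 CPM per kb with DMSO and 229 ± 6.16 CPM per kb with ACBI1 (SD, n = 2); the ACBI1 libraries were both below the controls. ELF3 and EHF together made up 1.34% and 1.91% of that sum in the DMSO libraries and 0.0196% and 0.0151% in the ACBI1 libraries. As a share of the 8 broadly expressed members, the pair came to 2.48% and 3.51% with DMSO and to 0.0333% and 0.0283% with ACBI1, with the 2 groups far apart. The 8 themselves held 54.3% ± 0.224 with DMSO and 56.1% ± 3.99 with ACBI1 (SD, n = 2), which overlapped between groups. Within them ETS1 went from 15.8% and 14.6% to 26.9% and 19.0%, and ELK3 from 10.4% and 13.2% to 16.8% and 17.3%. ETS2 went from 8.82% and 7.40% to 2.96% and 2.80%. These shares carry no test, since the smallest two-sided exact permutation p for 2 against 2 libraries is 0.333.

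**Figure D3:**
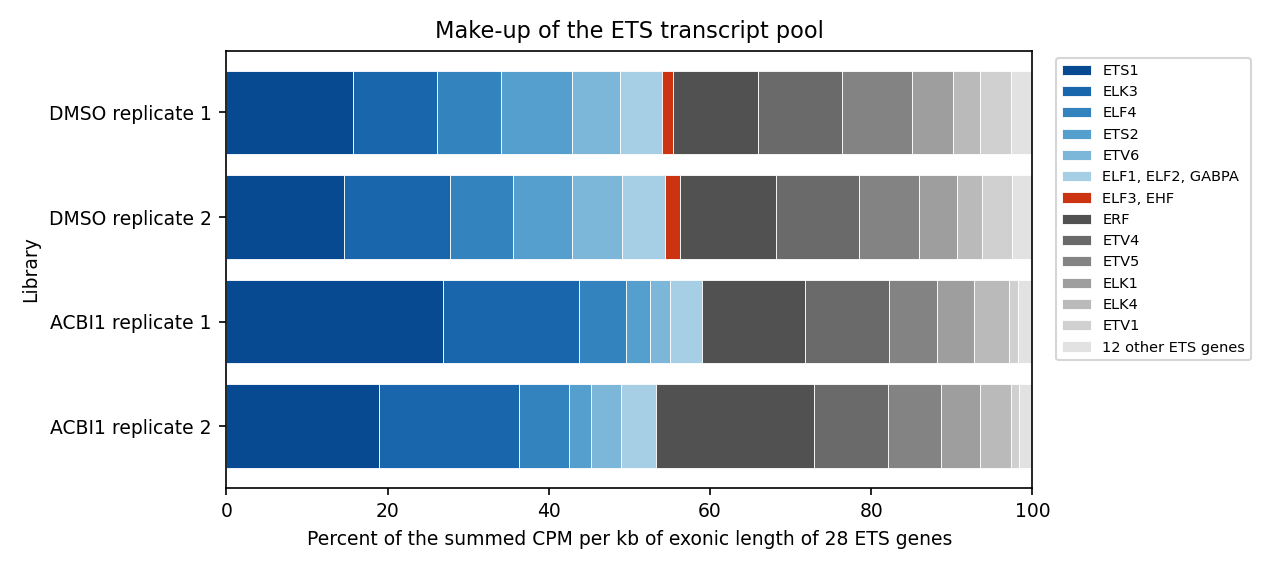
Shares of ETS genes in the summed CPM per kb of 28 ETS genes, 1 bar per library, with the 10 genes studied in blue and red and the others in grey. ELF1, ELF2 and GABPA are pooled in 1 segment, as are ELF3 and EHF and some of the other genes. The red segment of ELF3 and EHF, 1.34% and 1.91% with DMSO, is too thin to see with ACBI1 (0.0196% and 0.0151%), while the ETS1 segment is wider in both ACBI1 libraries.

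The other 18 genes of the family included 12 that could be tested, of which 2 fell and none rose, or 16.7%, near the 17.4% of all tested genes. ETV1, an ERK-linked activator of the PEA3 group, fell from 90.7 and 87.6 CPM to 24.8 and 21.4 CPM, a log2 change of -1.95 (SE 0.16, adjusted p 0.00259). Its PEA3 relatives ETV4 and ETV5 were not called, with log2 changes of -0.18 (95% interval -0.57 to 0.21, adjusted p 0.478) and -0.46 (95% interval -0.85 to -0.08, adjusted p 0.0985). FLI1, known from blood and endothelial cells, fell from 6.69 and 9.67 CPM to 1.55 and 1.19 CPM, a log2 change of -2.57 (SE 0.34, adjusted p 0.00791). FLI1 is the next protein-coding gene to ETS1, 99.0 kb away, and ETS1 was higher in both ACBI1 libraries, so the neighbours had estimates of opposite sign. The same kind of neighbour pair is formed by EHF and ELF5 (107 kb apart) and by ETS2 and ERG (144 kb apart). ELF5 had 1 count in all 4 libraries together and ERG had 0.

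Among the remaining tested genes, ELK1 and ELK4, which like ELK3 bind with SRF, had log2 changes of -0.16 (adjusted p 0.504) and 0.22 (adjusted p 0.392). The repressors ERF and ETV3 had values of 0.42 (adjusted p 0.243) and -0.46 (adjusted p 0.146). ETV2, ETV7, SPDEF and SPI1 were rare, under 1.2 CPM in each library, with values of -1.18, -0.96, -1.02 and 0.11 and adjusted p of 0.170, 0.255, 0.319 and 0.923. SPDEF, a further epithelial ETS factor of secretory cells, had 28 and 9 counts with DMSO and 11 and 7 with ACBI1, too few to set it beside ELF3 and EHF. The last 6 could not be tested: ETV3L, ERG and SPIC had 0 counts in each library, ELF5 and FEV 1 count in a single library, and SPIB between 1 and 8.

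Lists of genes linked to ETS factors were read from the same fit, beside the 17.4% called over all genes. Of 20 partners and regulators, 1 rose, 1 fell and 18 were not called, with a median log2 change of -0.04. SRF, the partner of ELK3, rose from 83.9 and 70.7 CPM to 156 and 141 CPM (log2 change 0.94, adjusted p 0.0182). RUNX2, whose family binds DNA together with ETS1, fell from 73.4 and 86.3 CPM to 23.9 and 25.7 CPM (log2 change -1.69, adjusted p 0.00395). GABPB1, the main partner of GABPA, was not called (0.35, adjusted p 0.439), and its values overlapped between the groups. GABPB2, in the same list, was lower in both ACBI1 libraries and not called either (-0.95, adjusted p 0.0655).

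The 14 output genes of RAS-ERK signalling included 6 that fell (42.9%) and none that rose, with a median of -0.85. Of all tested genes, 10.6% were called lower. EPHA4, an ephrin receptor, fell from 1.77 and 3.64 CPM to 0.257 and 0.0915 CPM (log2 change -3.90, adjusted p 0.0136). IER3, an early response gene, went from 803 and 1284 CPM to 62.6 and 99.5 CPM (log2 change -3.69, adjusted p 0.00366). IER3-AS1 covers 26.5% of its exons. The ERK phosphatase genes DUSP5 and DUSP4 had values of -3.00 (adjusted p 0.00141) and -2.58 (adjusted p 0.00259). DUSP6, another phosphatase of ERK, was not called (log2 change -0.33, adjusted p 0.446), so the members did not share one response.

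Among 16 epithelial junction and surface genes, 15 were tested, of which 8 fell (53.3%) and 7 were not called, with a median of -1.63. The share called lower over all tested genes was 10.6%. CLDN4, a claudin of tight junctions, was at 19.4 and 42.7 CPM with DMSO and at 1.08 and 0.747 CPM with ACBI1. The log2 change of CLDN4 was -5.07 (adjusted p 0.00357), that of the protease gene ST14 -3.64 (adjusted p 0.0185) and that of KRT19 -2.51 (adjusted p 0.0171). EPCAM had a positive value of 1.32 (SE 0.60, adjusted p 0.179). Of 16 epithelial transcription and splicing regulators, 10 were tested, 3 fell (30%), none rose and the median was 0.15. The 3 were TP63 (log2 change -2.95, adjusted p 0.00932), KLF4 (-1.89, adjusted p 0.0153) and KLF5 (-1.39, adjusted p 0.00750). TP63 was at only 1.71 and 1.28 CPM with DMSO. Of the 10 tested, 4 had a negative log2 change and 6 a positive one, none of the 6 called. GRHL2 had 3 counts in DMSO replicate 2 and 0 elsewhere, and OVOL2 had 0 in each library.

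The 12 mitochondrial genes linked to GABPA each had a positive log2 change, with a median of 0.46. Over all 19159 tested genes, 9661 had a positive change. Of the 12, 2 rose past the threshold, or 16.7% of them, where 6.75% of all tested genes were called higher. POLRMT, the mitochondrial RNA polymerase, went from 154 and 95.8 CPM to 298 and 283 CPM (log2 change 1.22, adjusted p 0.0268). COX5A, a subunit of cytochrome c oxidase, went from 126 and 112 CPM to 194 and 185 CPM (0.67, adjusted p 0.0387). TFAM, the mitochondrial transcription factor, was not called (0.39, adjusted p 0.136).

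**Figure D4:**
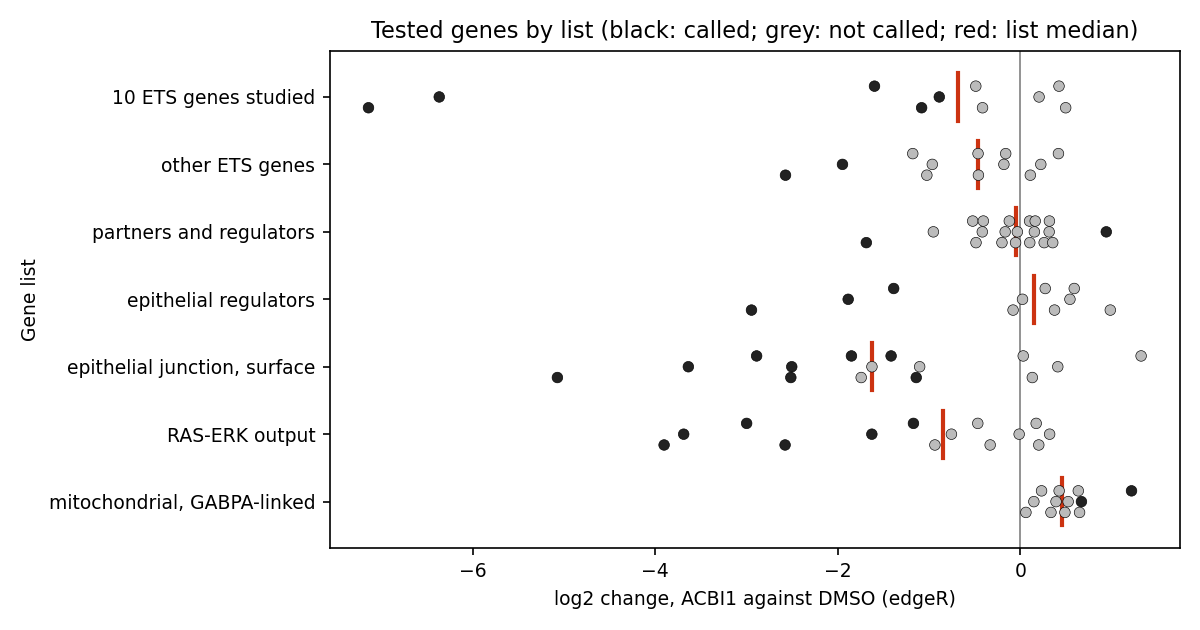
log2 change with ACBI1 of every tested gene in 7 lists, black where called and grey elsewhere, with each list's median as a red line. ELF3 and EHF are the 2 lowest points of the plot at -6.36 and -7.14, and the mitochondrial list lies wholly above 0.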

How the data were processed

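Each deposited file lists 1 library's unnormalized counts by gene symbol, in the layout of htseq-count. The submitters' processing notes name TopHat2 2.1.1, HTSeq 0.11.0 and hg38, without saying how they were used. Annotation and strand setting are not given in the sources used here. Lines for reads given to no gene were left out of library sizes (genes held 84.6% to 86.1% of listed reads).

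Genes were filtered with filterByExpr (minimum count 10, total 15), scaled by TMM and fitted in edgeR 4.0.16 (R 4.3.3; glmQLFit, glmQLFTest, treatment alone, two-sided, Benjamini-Hochberg over 19159 genes). A call is an adjusted p under 0.05. CPM use TMM-scaled library sizes. The SE of a log2 change was its size over the root of the F statistic. Likeness is the Euclidean distance of log2 CPM (prior count 2). Positions, exonic lengths and overlaps came from GENCODE release 29 (GRCh38), matched by symbol for all 10 genes, and promoters from RefSeq. The fit was tested on simulated counts.

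The members and lists were chosen with earlier results of these data known. All members and tested ETS genes are named, and in each other list up to 4 called genes with the largest change, with the 3 genes nearest to ELF3 and to EHF. One gene that this rule would name is not reported here. GABPB1, GABPB2, DUSP6, EPCAM, GRHL2, OVOL2 and TFAM, and the marker genes, the ACBI1 targets and ELF3-AS1, were named after their values were seen. The alternatives were DESeq2 1.42.0 and its size factors, limma-voom (limma 3.58.1), other scalings and filters, a replicate term, a threshold of 0.01 and each library left out.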

Additional observations from a re-analysis of the deposited data

How the results depend on the processing

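Scaling, tool and filter did not change the side of the threshold of any of the 10 ETS genes where they were tested, with EHF not tested at a mean of at least 5 CPM, and scaling by library size only raised the median log2 change of all genes by 0.09. With no filter on low counts 5518 of 32871 tested genes were called, where with the filter 3331 of 19159 were. At a threshold of 0.01, 783 of the 19159 genes were called, with 3 of the 10 ETS genes (ELF3, EHF and ETS2). Leaving out 1 library gave 1379 (without ACBI1 replicate 1) to 4292 called genes, with 1807 without ACBI1 replicate 2, 3 to 5 called ETS genes and a median log2 change of ELF3 and EHF from -9.04 to -6.42. The lone library is then assumed to vary like the other group. The lowest count of ETS genes and the lowest median also came without ACBI1 replicate 1. SPI1, with few counts, went from 0.11 to between -0.37 and 0.78, reversing without DMSO replicate 1.

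With the replicate number as a block, 7909 of the 19159 tested genes were called, against 3331 without it, so calls became more frequent among all genes. Of the 10 ETS genes 9 were called, 7 lower and 2 higher. The block added ELF2 (adjusted p 0.0464), ELF4 (0.00780), ETS1 (0.0300) and ELK3 (0.0290), and GABPA (0.309) was not called. ETV2, ETV3, ETV5 and ERF were then called as well. Deviations of same-numbered libraries from their group means correlated at 0.44 across genes, but the labels do not say that a number marks a shared batch, and with 2 numbers the pairing cannot be judged.

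With 2 libraries a group, the ACBI1 levels of EHF (7 counts) and ELF3 (34 counts) are set by few counts.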
